A study of Mus musculus with 12 samples.

Results

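The genes of the nuclear pore and of the transport receptors that carry cargo through it were selected by symbol: every Nup, Ipo, Xpo, Tnpo, Kpna or Ranbp symbol followed by a number, with Xpot, Kpnb1, Ran, Rangap1, Rcc1 and Cse1l. This gave 53 of the 40853 symbols in the count tables. Of these, 52 had enough counts to be tested in every comparison. The remaining symbol, the importin alpha gene Kpna7, had 0 counts in all 12 libraries, and 3 counts, the limit that a count of 0 allows, correspond to 0.193 to 0.291 CPM (counts per 1000000 counts of the library). The central channel gene Nup58 and the cytoplasmic filament gene Nup42 stand in the tables under the older symbols Nupl1 and Nupl2, which the rule does not match. They are not counted among the 53.

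The RNA came from microglia and astrocytes sorted by flow cytometry from the whole brains of mice labelled WT or KPNA4 KO. All mice, the WT controls included, were 8 to 9 weeks old and had received 1 mg/kg of lipopolysaccharide (LPS, from the outer membrane of bacteria, which provokes inflammation) into the peritoneum 20 h before dissection. WT and KO microglia and WT and KO astrocytes formed 4 groups, each of 3 libraries. A number that both cell types share in the labels was read as the animal, so that each of 6 animals, 3 per genotype, gave 1 library of each cell type. No group without LPS was analysed here. The strain, the sorting markers, whether the KO acts in all cells, and the deleted part of Kpna4 are not stated in the labels used here. WT and KO refer to the libraries' labels throughout, since Kpna4 RNA, summed over the whole gene, did not fall past the test in the libraries labelled KO. The comparisons ask whether the libraries labelled KPNA4 KO hold more RNA of other transport genes than the WT libraries, and how the 2 cell types differ in these genes.

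Proteins with a nuclear localization signal are bound in the cytoplasm by an importin alpha, such as the product of Kpna4, which links them to importin beta 1 (Kpnb1). The complex passes the pore by touching nucleoporins with phenylalanine-glycine repeats, and the GTPase Ran, kept in its GTP form in the nucleus by Rcc1 and switched off in the cytoplasm by Rangap1, releases the cargo. The product of Cse1l then returns importin alpha to the cytoplasm. Other importins bind cargo without an adaptor, exportins carry cargo out, and the scaffold nucleoporins form the rings of the pore. Among the known cargoes of importin alphas are transcription factors of inflammation such as NF-κB and STAT proteins.

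Promoter windows were taken from RefSeq (build GRCm38.p6), 250 bases before and 50 bases after an annotated transcription start. They were found for 42 of the 53 genes, in 49 windows. The 250 bases before the start are printed for the targeted gene Kpna4 and for its partner Kpnb1, as the genes around which the comparison of genotypes turns. The Kpna4 window lies at chr3:69127093-69127342 and the Kpnb1 window at chr11:97187893-97188142, both on the minus strand. Capitals mark CCAAT or its reverse complement ATTGG, the core of the box bound by the factor NF-Y.
Kpna4: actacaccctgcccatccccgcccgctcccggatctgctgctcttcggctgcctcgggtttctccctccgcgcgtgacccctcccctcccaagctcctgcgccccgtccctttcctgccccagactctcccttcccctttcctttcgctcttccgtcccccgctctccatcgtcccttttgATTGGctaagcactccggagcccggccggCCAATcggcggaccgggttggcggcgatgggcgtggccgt
Kpnb1: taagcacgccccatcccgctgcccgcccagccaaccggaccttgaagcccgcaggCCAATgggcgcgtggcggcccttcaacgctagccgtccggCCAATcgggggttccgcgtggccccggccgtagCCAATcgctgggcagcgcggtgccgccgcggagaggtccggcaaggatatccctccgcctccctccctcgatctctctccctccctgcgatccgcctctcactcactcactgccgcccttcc
CCAAT, on either strand, was in 46.9% of the 49 windows and in 37.4% of the 32851 windows of all genes or 37.2% of the windows of the genes tested between the cell types.

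Windows of Nup62 (chr7:44815838-44816087, plus strand) and Ran (chr5:129019906-129020155, plus strand) are shown because both windows hold GCATGCG, the core of a palindrome of the kind bound by the factor NRF1. Capitals mark GCATGCG and its reverse complement CGCATGC, which overlap here, and in Nup62 also CCAAT or ATTGG.
Nup62: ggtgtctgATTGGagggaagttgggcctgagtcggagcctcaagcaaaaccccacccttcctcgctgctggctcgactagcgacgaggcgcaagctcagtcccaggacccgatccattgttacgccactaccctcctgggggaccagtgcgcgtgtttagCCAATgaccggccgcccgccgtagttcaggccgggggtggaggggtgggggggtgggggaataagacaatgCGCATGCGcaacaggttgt
Ran: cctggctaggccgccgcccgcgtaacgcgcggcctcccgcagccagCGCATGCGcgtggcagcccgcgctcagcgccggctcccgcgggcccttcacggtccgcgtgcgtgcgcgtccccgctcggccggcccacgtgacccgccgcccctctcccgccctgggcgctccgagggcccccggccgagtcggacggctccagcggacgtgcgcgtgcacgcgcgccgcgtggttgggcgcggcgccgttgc
GCATGCG, on either strand, was in 7 of the 49 windows (14.3%), those of Nup107, Nup50, Nup62, Ran, Ranbp1, Rcc1 and Xpo5, and in 3.58% of all windows or 5.36% of the windows of the genes tested between the cell types.

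Nup210 (chr6:91116827-91117076, minus strand) and Ranbp17 (chr11:33513754-33514003, minus strand) had the largest fall and the largest rise in astrocytes. Their windows hold none of the 4 motifs searched.
Nup210: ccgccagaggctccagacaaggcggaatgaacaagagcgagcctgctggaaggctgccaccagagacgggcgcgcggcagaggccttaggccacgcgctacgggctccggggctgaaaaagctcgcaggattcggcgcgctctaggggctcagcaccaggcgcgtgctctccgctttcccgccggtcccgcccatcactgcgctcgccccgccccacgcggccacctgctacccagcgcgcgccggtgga
Ranbp17: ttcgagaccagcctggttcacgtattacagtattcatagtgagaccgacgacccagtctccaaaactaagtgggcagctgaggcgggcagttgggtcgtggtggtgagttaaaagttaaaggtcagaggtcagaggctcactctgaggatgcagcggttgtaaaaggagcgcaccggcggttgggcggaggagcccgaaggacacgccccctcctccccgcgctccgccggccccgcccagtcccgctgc
The other motifs were CCGGAAG, of the kind bound by ETS factors, in 16.3% of the windows against 8.86% of all windows and 14.4% of those of tested genes, and GAGGAAGT, of the kind bound by the myeloid factor PU.1, in 0 of the 49 windows against 3.20% of all and 2.90% of those of tested genes. All motifs were searched on both strands and were chosen after some of these sequences had been seen. A match is a stretch of letters, and binding was not measured.

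The count tables summed to 10319842 to 14520453 counts per microglia library and 10744794 to 15575662 per astrocyte library. The sorted types carried their markers: 9 microglia markers summed to 14260 to 18795 CPM in microglia and 210.0 to 603 CPM in astrocytes, and 9 astrocyte markers to 14119 to 18743 CPM in astrocytes and 316 to 657 CPM in microglia. Markers of other cells were also present: in microglia and in astrocytes, in that order, oligodendrocyte markers summed to 252 to 1693 and 780.5 to 3819 CPM, endothelial and mural markers to 21.0 to 80.9 and 322 to 408 CPM, and neuron markers to 9.12 to 19.3 and 53.1 to 124 CPM. Markers of other leukocytes summed to 74.1 to 167 CPM in microglia and 6.08 to 21.3 CPM in astrocytes, with the T cell marker Cd3e at 0 in all libraries. A set of 8 abundant non-coding RNAs took 11.8% to 15.4% of the counts in microglia and 26.2% to 39.5% in astrocytes. The highest of these shares, in astrocytes KO replicate 2, lowers the CPM of all other genes in that library. Reads are not strand-specific by this library kit, so genes that overlap on opposite strands cannot be told apart by strand. In the annotation at least 10% of the exon bases of Ipo4, Ranbp1 and Tnpo2 overlap 1 other gene. The overlap is on the same strand for Ipo4 (55.3%) and Ranbp1 (16.9%), and on the opposite strand for Tnpo2 (10.6%). In bulk libraries fewer cells with a transcript and less transcript per cell cannot be told apart.

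The 53 genes together took 3697 to 4459 CPM in the 6 microglia libraries and 1634 to 2153 CPM in the 6 astrocyte libraries. In microglia the sum was 4031 ± 289.9 CPM for WT and 4242 ± 189.7 CPM for KO (SD, n = 3 each). In astrocytes it was 2049 ± 87.1 CPM for WT and 1966 ± 288 CPM for KO (SD, n = 3 each). WT and KO libraries overlapped in this sum in both cell types. Levels of different genes were compared as CPM per kb of annotated exon. On that scale Ranbp1, a cofactor of GTP hydrolysis by Ran, was the highest member, at 72.9 in microglia and 38.1 in astrocytes. Ran itself was next, at 69.2 and 36.8 CPM per kb. Kpnb1 at 57.9 came before Ranbp2, the large cytoplasmic filament nucleoporin, at 42.1 in microglia. In astrocytes Ranbp2 at 25.3 came before Kpnb1 at 18.7. The libraries of Ranbp1 and Ran overlapped on this scale. At the low end in microglia stood Ranbp17 at 0.0717 CPM per kb and the outer ring gene Nup37 at 1.33.

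Kpna4, the targeted gene, was at 67.9, 96.4 and 89.0 CPM in the 3 WT microglia libraries and 78.6, 68.5 and 59.8 CPM in the 3 KO libraries. In astrocytes it was at 40.1, 51.1 and 57.6 CPM in WT and 69.0, 43.8 and 80.2 CPM in KO. The genotypes overlapped in both cell types, no KO library was near 0, and in astrocytes 2 of the 3 KO libraries were above all WT libraries. The log2 fold change was -0.31 in microglia (SE 0.21, 95% interval -0.75 to 0.13) and 0.47 in astrocytes (SE 0.23, 95% interval -0.04 to 0.98), with edgeR adjusted p of 0.778 and 0.999.

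In microglia no transport or pore gene passed the test between KO and WT. The median log2 fold change of the 52 genes was 0.0069, against -0.0013 over all genes tested, and 28 of 52 were above 0, against 49.9% of all genes. The highest point estimates were those of Nup35, Ipo11, Nup107, Nup88 and Cse1l, and the lowest those of Ranbp17 and Nup210. At an adjusted p under 0.05 edgeR called 0 of 52, where it called 0 of the 14191 genes tested (0%). DESeq2 and limma voom also called 0 of the 52, while DESeq2 called 41 of the 24255 genes with any count. At an unadjusted p under 0.05 there was 1 gene, Nup210, against 7.42% of all genes, and 1 by DESeq2 and by voom. The libraries of 6 of the 52 genes did not overlap between the genotypes (11.5%, against 13.1% of all genes tested). With 1 library left out, so with 2 against 3, this count was 11 (without WT replicate 1), 15 (WT replicate 2), 17 (WT replicate 3), 7 (KO replicate 1), 12 (KO replicate 2) or 9 (KO replicate 3), against 19.7% to 27.1% of all genes.

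The 95% interval of the log2 fold change lay inside -1 to 1, that is within 2-fold either way, for 43 of the 52 genes, against 48.5% of all genes tested. The 9 others were Ipo11, Ipo4, Kpna2, Nup107, Nup210, Nup35, Nup37, Nup43 and Ranbp17. The median interval reached 0.47 to either side of the estimate. With 3 libraries per group, differences within these intervals were not excluded.

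**Figure D1:**
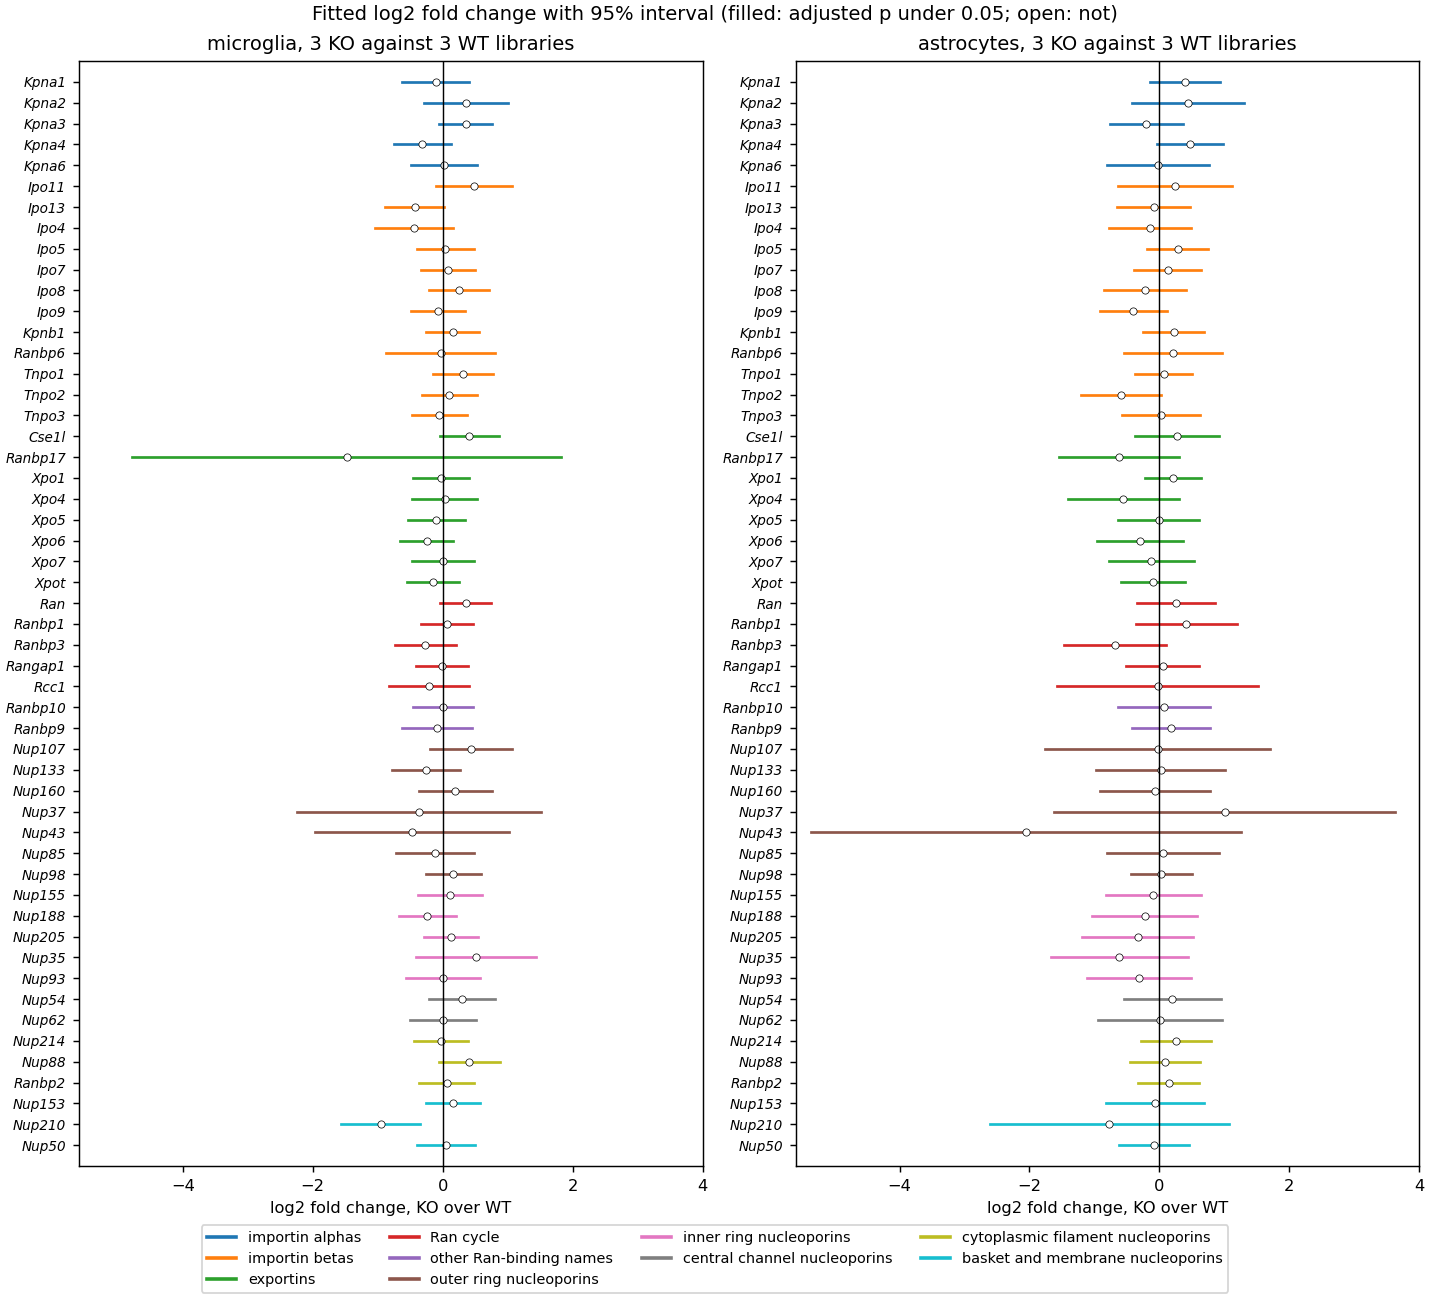
Fitted log2 fold change of KO over WT (horizontal axis) for the 52 tested genes in microglia (left) and astrocytes (right), coloured by role, with lines for the 95% interval from 3 against 3 libraries. All points are open, since no adjusted p was under 0.05, and the interval of Nup210 in microglia, -1.56 to -0.34, leaves out 0 while its adjusted p was 0.542.

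Among the other importin alphas of microglia, Kpna3, the closest relative of Kpna4, was at 78.0, 82.3 and 75.8 CPM in WT and 117, 94.2 and 95.9 CPM in KO. All 3 KO libraries lay above all 3 WT libraries, but the log2 fold change of 0.36 (SE 0.19, 95% interval -0.05 to 0.77) had an edgeR adjusted p of 0.727. Kpna2, an importin alpha known for high levels in dividing cells, was at 14.2, 29.4 and 36.1 CPM in WT and 33.6, 30.7 and 39.2 CPM in KO. Its lowest value was in WT replicate 1, and the other 5 libraries overlapped. Kpna1 was at 116, 124 and 76.0 CPM in WT and 123, 92.0 and 84.0 CPM in KO, and Kpna6 at 50.5, 39.8 and 78.0 CPM in WT and 57.4, 54.6 and 60.7 CPM in KO, with overlap in both genes. The log2 fold changes of Kpna1, Kpna2 and Kpna6 were -0.11, 0.36 and 0.02, with edgeR adjusted p between 0.834 and 0.994. The importin alphas other than Kpna4 together took 267 ± 8.54 CPM in WT and 294 ± 32.6 CPM in KO microglia (SD, n = 3).

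**Figure D2:**
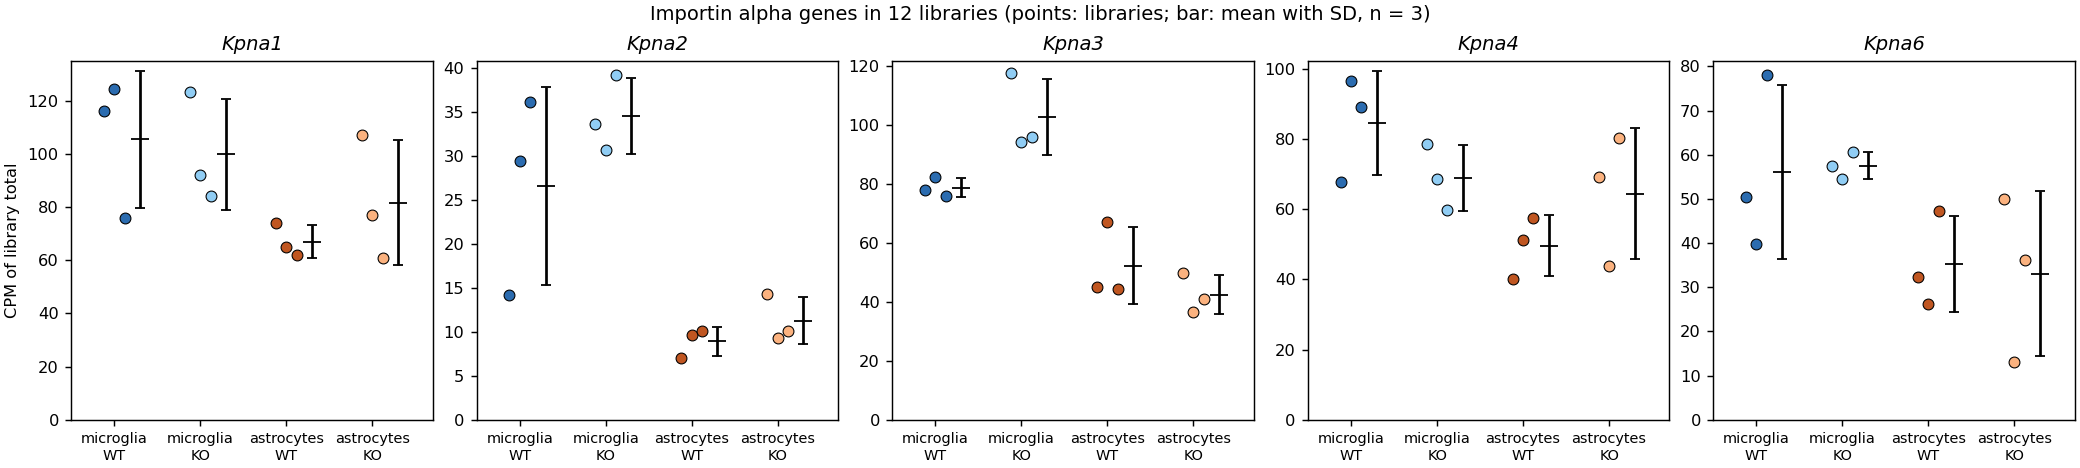
CPM of the 5 detected importin alpha genes (vertical axes, each starting at 0) in the 12 libraries, with the mean and SD of each group of 3. In microglia all KO points of Kpna3 lie above all WT points, while the Kpna4 points of the genotypes overlap in both cell types.

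The make-up of the importin alpha pool was described per library as each gene's share of their summed CPM per kb. Kpna4 held 11.9%, 14.5% and 13.9% of the pool in WT and 10.3%, 10.8% and 9.14% in KO microglia. Every KO library was below every WT library in this share. Kpna3 held 29.6%, 26.9% and 25.6% in WT and 33.4%, 32.3% and 31.8% in KO microglia, and here every KO library was above every WT library. In astrocytes Kpna4 held 11.7%, 13.2% and 15.5% in WT and 14.0%, 14.0% and 21.8% in KO, with overlap and with the highest share in KO replicate 3. Kpna3 held 28.4%, 37.7% and 25.9% in WT and 21.8%, 25.4% and 24.0% in KO astrocytes, where every KO library was below every WT library. Kpna1 held the largest share in 5 of the 6 astrocyte libraries and in WT replicates 1 and 2 of microglia, and Kpna3 in the other 5 libraries. The shares add to a fixed total, so a lower share of 1 gene raises those of the rest, and they were not tested. The summed pool of microglia was 70.8 ± 5.51 CPM per kb for WT and 77.4 ± 7.91 for KO, and that of astrocytes 41.6 ± 2.52 for WT and 44.4 ± 10.5 for KO (SD, n = 3 each).

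**Figure D3:**
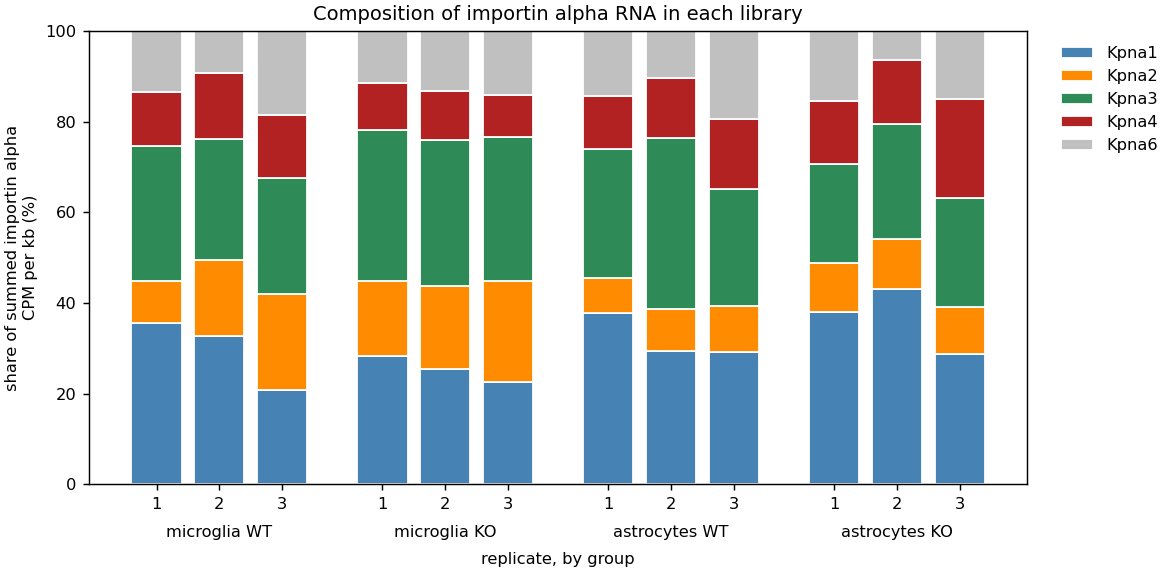
Share of each importin alpha gene in the summed importin alpha CPM per kb (vertical axis, %) for the 12 libraries, 3 per group. The Kpna4 band is narrower in all 3 KO microglia libraries than in the WT ones, and the Kpna3 band is wider.

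The importin betas and transportins, which bind cargo or importin alpha directly, had log2 fold changes of -0.44 to 0.48 in microglia. Kpnb1 was at 271, 331 and 360.3 CPM in WT and 336, 324 and 427 CPM in KO, with overlap (log2 fold change 0.15, SE 0.19). Ipo13, a receptor that works in both directions, was at 75.8, 53.6 and 62.8 CPM in WT and 45.3, 48.8 and 50.9 CPM in KO. All its KO libraries were below its WT libraries, and the log2 fold change was -0.43 (SE 0.21, adjusted p 0.690 by edgeR). Ipo11 was at 13.0, 15.8 and 20.3 CPM in WT and 24.8, 24.0 and 20.7 CPM in KO, also without overlap. Ipo11 shares reads with a read-through transcript listed as Ipo11-lrrc70, and when both counts were added, an alternative chosen after the data were seen, the genotypes overlapped and the log2 fold change went from 0.48 to 0.31 (adjusted p 0.817 by edgeR).

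Among the exportins, with log2 fold changes of -1.48 to 0.41, Cse1l returns importin alphas to the cytoplasm. It was at 41.5, 57.9 and 62.5 CPM in WT and 72.4, 63.6 and 82.0 CPM in KO microglia. The lowest KO library lay just above the highest WT library, and the log2 fold change was 0.41 (SE 0.21, adjusted p 0.716 by edgeR). Xpo1, the main exportin for proteins with leucine-rich signals, was at 90.8, 139 and 129 CPM in WT and 124, 109 and 123 CPM in KO, with overlap and a log2 fold change of -0.03 (95% interval -0.46 to 0.40). Ran was at 142, 165 and 168 CPM in WT and 222, 184 and 209 CPM in KO. All KO libraries were above the WT libraries, with a log2 fold change of 0.35 (SE 0.18, adjusted p 0.717 by edgeR). Its regulators Rcc1, Rangap1, Ranbp1 and Ranbp3 had log2 fold changes of -0.20, -0.01, 0.06 and -0.27, and their libraries overlapped.

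Of the nucleoporins, Nup210 had the smallest p of all 52 genes. This membrane nucleoporin, present at pores of some cell types only, was at 65.4, 35.4 and 35.9 CPM in WT and 19.8, 26.4 and 26.0 CPM in KO microglia. The genotypes did not overlap, with KO lower, and WT replicate 1 was far above the other 2 WT libraries. The log2 fold change was -0.95 (SE 0.28, unadjusted p 0.00479, adjusted p 0.542 by edgeR). Without WT replicate 1 it was -0.59 with an adjusted p of 0.999, and over all alternatives the adjusted p ran from 0.0610 to 0.999. Nup88, on the cytoplasmic side, was at 45.5, 67.1 and 56.1 CPM in WT and 92.0, 65.1 and 70.5 CPM in KO, with overlap (log2 fold change 0.41, SE 0.22). By ring, the log2 fold changes were -0.48 to 0.44 in the outer ring, -0.24 to 0.51 in the inner ring, 0.01 to 0.30 in the central channel and -0.03 to 0.41 on the cytoplasmic filaments, with no call in any ring. The lowest value of the outer ring was that of Nup43, at 1.13 to 9.24 CPM in WT microglia. Beside these values, 6 choroid plexus and ependyma markers summed to 885 to 2209 CPM in WT and 358 to 898 CPM in KO microglia, with lower means in KO for all but Ccdc153, which was at 0 in at least 1 library. The 7 endothelial and mural markers summed to 25.8 to 80.9 CPM in WT and 21.0 to 34.8 CPM in KO microglia, with overlap and with a lower mean in KO for all 7, of which Vtn was at 0 in at least 1 library. Their part in these results was not tested.

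**Figure D4:**
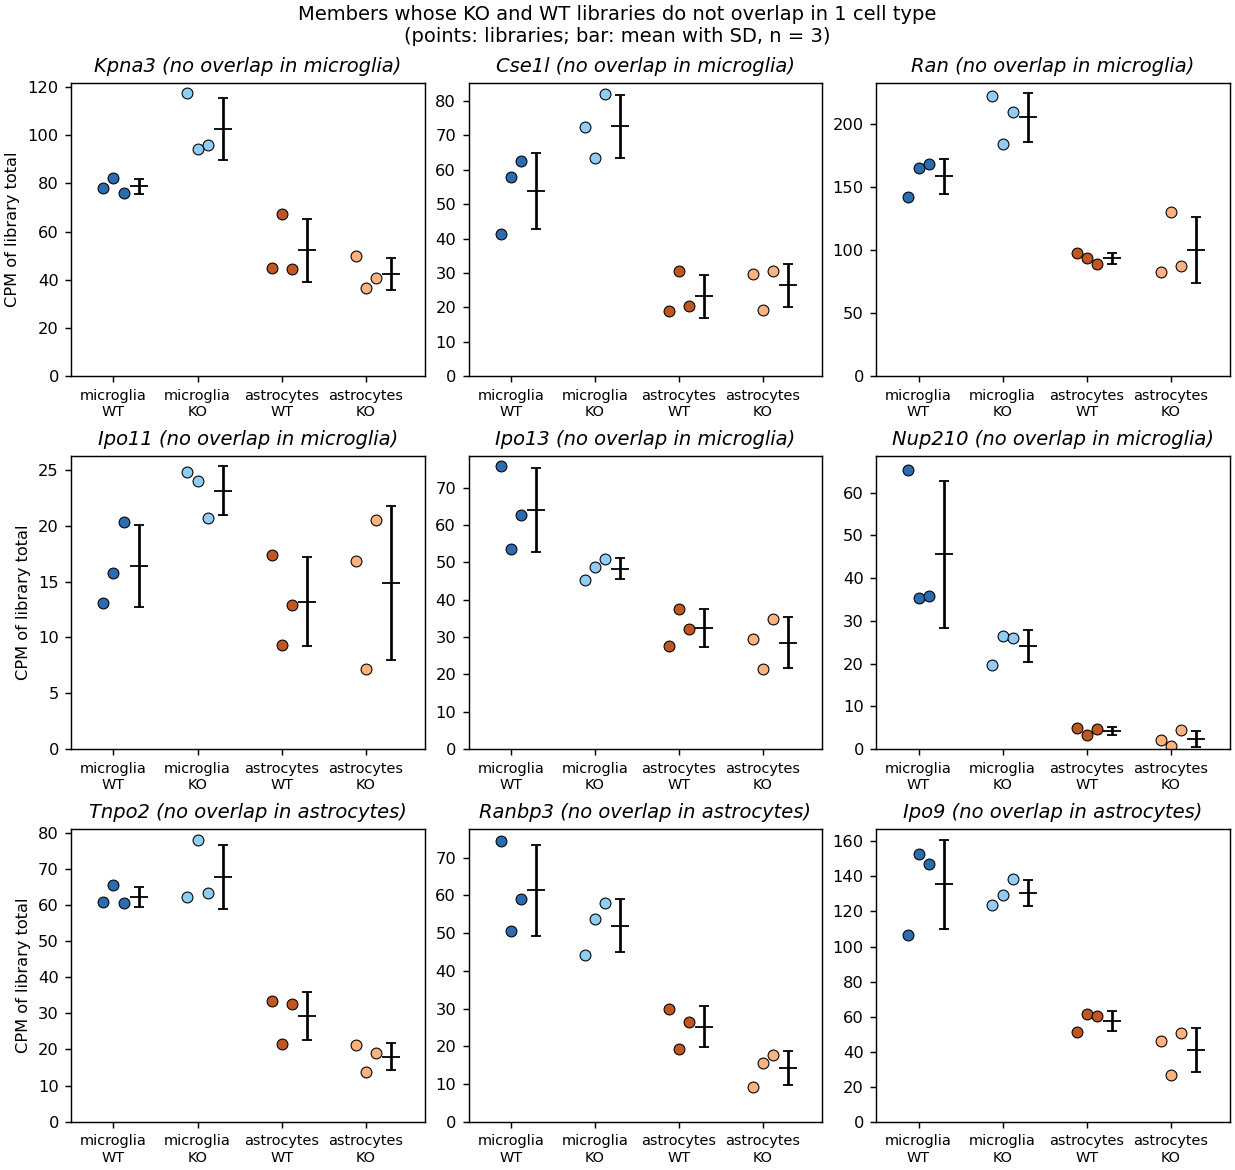
CPM (vertical axes from 0) of the 9 genes whose genotypes had no overlap in 1 cell type, named in each panel title, with the mean and SD of each group of 3. Kpna3, Cse1l, Ran and Ipo11 were higher and Ipo13 and Nup210 lower in KO microglia, and Tnpo2, Ranbp3 and Ipo9 lower in KO astrocytes, and none of them passed the test.

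In astrocytes no transport or pore gene passed the test between KO and WT either. The median log2 fold change of the 52 genes was -0.0046, against -0.0068 over all genes tested, and 26 of 52 were above 0, against 49.4% of all genes. Scaled by library totals alone, the medians were -0.09 and -0.11 and 17 of 52 were above 0. EdgeR called 0 of 52 at an adjusted p under 0.05, where it called 0 of 15755 genes (0%). DESeq2 and limma voom called 0 of the 52, while DESeq2 called 6 of the 23038 genes with any count. At an unadjusted p under 0.05 there were 0 of the 52, against 2.37% of all genes, 0 by DESeq2 and 1 by voom. The libraries of 3 of the 52 genes did not overlap (5.77%, against 8.13% of all genes), and all 3 were lower in KO. Over all genes the lean was the same way, with 5.74% lower and 2.39% higher in KO without overlap. Beside this count, the 7 endothelial and mural markers summed to 388, 400.4 and 408 CPM in WT and 328, 322 and 385 CPM in KO astrocytes. On this scale they did not overlap, with a lower mean in KO for all 7. CPM of library totals is lowered most by the abundant non-coding RNAs in KO replicate 2. Marker sums without those RNAs were not taken, so the separation is given for library totals only. The part of these markers in the results was not tested. With TMM-scaled CPM 5 of the 52 genes did not overlap (9.62%, against 8.63% of all genes), 2 of them higher in KO. Leaving out 1 library gave 5 (WT replicate 1), 9 (WT replicate 2), 3 (WT replicate 3), 8 (KO replicate 1), 8 (KO replicate 2) or 9 (KO replicate 3), against 15.3% to 21.5% of all genes. The 95% interval lay inside -1 to 1 for 35 of 52 genes, against 38.9% of all genes, and the median interval reached 0.66 to either side, wider than in microglia. With 1 library left out the count of such intervals was 22 (without WT replicate 1 or KO replicate 3), 23 (WT replicate 3), 24 (KO replicate 1), 25 (WT replicate 2) or 34 (KO replicate 2).

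Tnpo2, a transportin for RNA-binding proteins, was at 33.5, 21.5 and 32.7 CPM in WT and 21.3, 13.9 and 18.9 CPM in KO astrocytes. The highest KO library lay just below the lowest WT library, and the log2 fold change was -0.59 (SE 0.28, unadjusted p 0.0577, adjusted p 0.999 by edgeR). Ranbp3, a cofactor of export by Xpo1, was at 30.0, 19.2 and 26.5 CPM in WT and 9.10, 15.5 and 17.8 CPM in KO. All KO libraries were below the WT libraries, with a log2 fold change of -0.69 (SE 0.36, adjusted p 0.999 by edgeR). Ipo9, a receptor known for importing histones and actin, was at 51.1, 61.4 and 60.1 CPM in WT and 45.9, 26.6 and 50.6 CPM in KO. Its lowest value was in KO replicate 2, the library with the highest share of abundant non-coding RNA, and its log2 fold change, scaled by TMM, was -0.40 (SE 0.24, adjusted p 0.999 by edgeR).

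The importin alphas of astrocytes had log2 fold changes of -0.20 to 0.47. Kpna1 was at 74.1, 64.9 and 61.9 CPM in WT and 107, 77.0 and 60.7 CPM in KO, with KO libraries on both sides of WT. Kpna3 was at 44.9, 67.2 and 44.4 CPM in WT and 49.7, 36.7 and 40.8 CPM in KO, with 1 high WT library. The genotypes overlapped. Kpna2 was at 7.05, 9.68 and 10.05 CPM in WT and 14.3, 9.31 and 10.1 CPM in KO, and Kpna6 at 32.4, 26.3 and 47.3 CPM in WT and 49.99, 13.1 and 36.2 CPM in KO. All 5 had an edgeR adjusted p of 0.999. The importin alphas other than Kpna4 together took 163 ± 4.79 CPM in WT and 168 ± 46.1 CPM in KO astrocytes (SD, n = 3).

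The Ran cycle genes of astrocytes lay between -0.69 and 0.42 on the log2 scale. Ran was at 97.4, 93.8 and 88.9 CPM in WT and 82.5, 130.1 and 87.6 CPM in KO, where 1 KO library was above all WT libraries and 2 were below them. Cse1l was at 19.0, 30.5 and 20.4 CPM in WT and 29.6, 19.3 and 30.6 CPM in KO, with overlap (log2 fold change 0.27, SE 0.30). The inner ring genes were all below 0, at -0.62 to -0.09, and their libraries overlapped. The outer ring genes ranged from -2.06 to 1.01, with both ends set by genes of low level, Nup43 at 0 to 3.24 CPM and Nup37 at 0.425 to 3.91 CPM.

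The difference of the genotype effects, astrocytes minus microglia, was tested in a single fit of the 12 libraries. EdgeR called 0 of 52 at an adjusted p under 0.05, where it called 0 of 17294 genes (0%), and DESeq2 and voom called 0 of the 52. DESeq2 called 69 of the 26489 genes with any count. At an unadjusted p under 0.05 there was 1 of 52, against 6.37% of all genes, 2 by DESeq2 and 1 by voom. That gene was Kpna4, with a difference of 0.87 on the log2 scale (SE 0.30, unadjusted p 0.0118, adjusted p 0.614 by edgeR). Without KO replicate 3 the difference was 0.45. The median difference was 0.11 over the 52 genes and 0.16 over all genes, and with library totals alone that of all genes was -0.08. Differences above 0 were seen in 30 of the 52 genes, against 60.4% of all genes, and in 15 with library totals alone. Tnpo2 (-0.59, SE 0.31), Kpna1 (0.61, SE 0.37), Nup35 (-1.05, SE 0.68) and Kpna3 (-0.46, SE 0.32) followed by p, with edgeR adjusted p from 0.844 to 0.906. For Kpna2 and Kpna6 the differences were 0.16 and 0.05, and both were below 0 with library totals alone, at -0.04 and -0.13.

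Between the cell types most of these genes were lower in astrocytes, with at least 1 called gene in every role group, and in the fit over both genotypes Ranbp17 alone was called as higher. In the WT libraries alone Nup35 was called as higher too. Averaged over the genotypes, edgeR called 40 of 52 genes at an adjusted p under 0.05, where it called 64.6% of the 17294 genes tested. Of these, 39 were lower in astrocytes, against 28.2% of all genes, and 1 was higher, against 36.4%. The libraries of 37 of the 52 genes did not overlap, 6 against 6, against 46.5% of all genes. A fold change of at least 2 with a call was seen in 22 genes (42.3%), against 52.6% of all genes. The median log2 fold change was -0.82 over the 52 genes and 0.19 over all genes, and 5 of 52 genes were above 0, against 54.1% of all genes. These were Ranbp17, Nup35, Nup37, Ranbp6 and Xpo7, and with library totals alone 2 of 52 were above 0.

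The choice of scaling moved the median of all genes from 0.19 with TMM to -0.09 with library totals alone, a shift of 0.28, so the values are read relative to it. The median of the 52 genes minus that of all genes was -1.01 with either scaling and between -0.85 and -1.09 over the alternatives run. With library totals alone 45 genes were called, 44 of them lower in astrocytes. The sum of 10 proliferation genes was 236 to 315 CPM in microglia and 44.6 to 79.2 CPM in astrocytes. Means were higher in microglia for all but Ccnb1, and Ccnb1, Cdk1 and Birc5 were each at 0 in at least 1 library. The genes differed in size of difference. Mcm3 averaged 92.1 CPM in WT and 93.4 CPM in KO microglia, and 8.05 and 5.73 CPM in WT and KO astrocytes. Mki67 averaged 18.4 CPM in WT and 17.6 CPM in KO microglia, and 6.60 and 17.4 CPM in WT and KO astrocytes. The part of proliferation, and of the abundant non-coding RNAs, in the difference between cell types was not tested beyond removing the latter. Without these 8 RNAs the 53 genes summed to 4193 to 5094 CPM of the remaining counts in microglia and 2700.3 to 3106 CPM in astrocytes, a ratio of means of 1.67, where the ratio was 2.06 with them. An effect of the sort or of the library batch cannot be told apart from cell type.

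**Figure D5:**
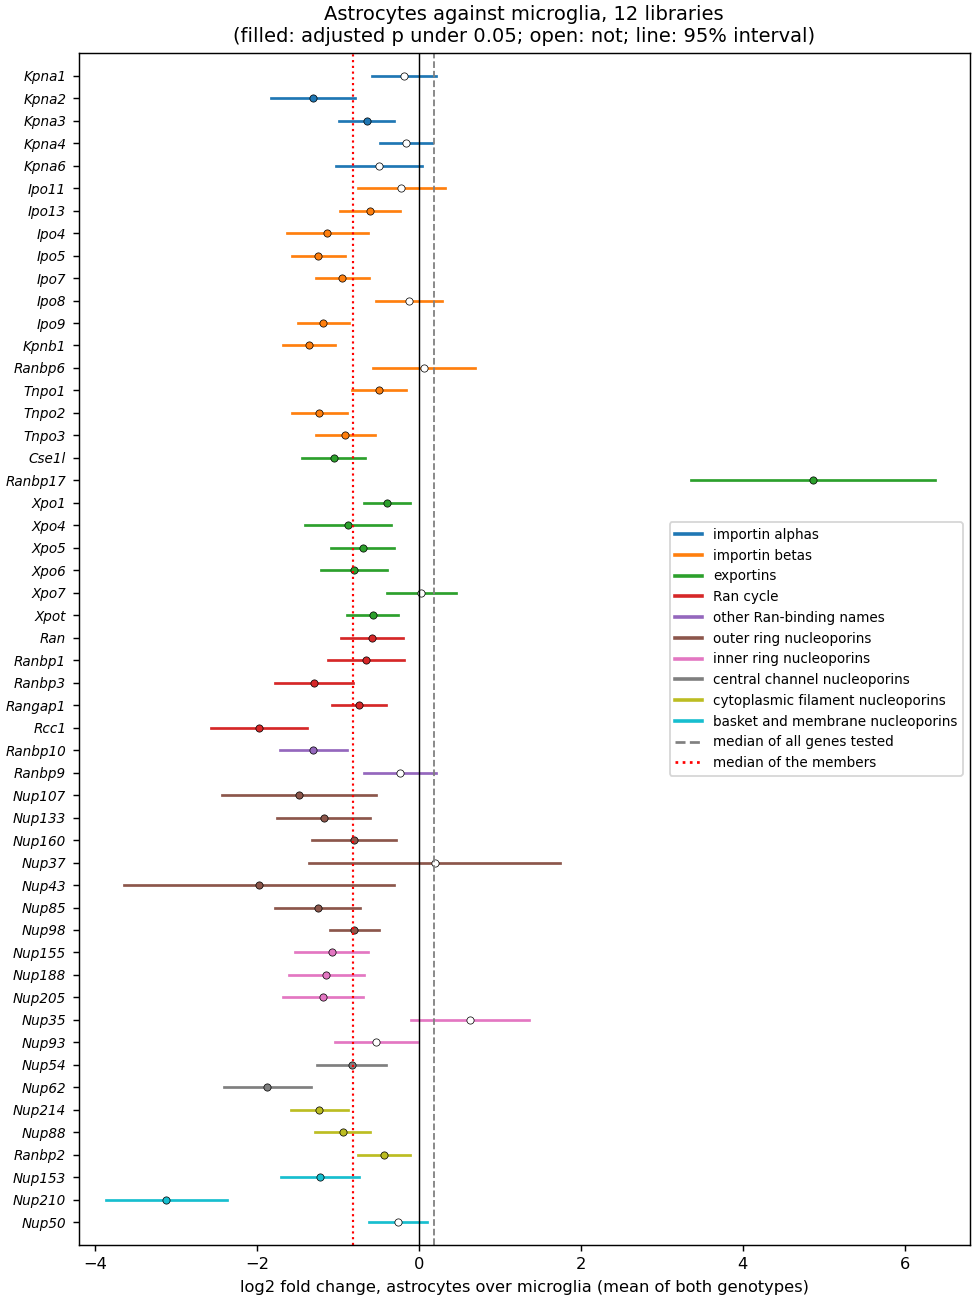
Fitted log2 fold change of astrocytes over microglia, averaged over genotypes (horizontal axis), for the 52 tested genes by role, with lines for the 95% interval from 12 libraries; filled points had an adjusted p under 0.05. The dotted line marks the median of the 52 genes, -0.82, and the dashed line that of all genes tested, 0.19, and Ranbp17 at 4.87 and Nup210 at -3.12 lie at the ends.

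By role, the summed CPM of library totals of every class was higher in all 6 microglia libraries than in any astrocyte library. These totals include the 8 abundant non-coding RNAs, which took a larger share in astrocytes. Class sums without these RNAs were not taken, so the separation and the ratios hold for this scale only. For all 53 genes the ratio was 2.06 with them and 1.67 without them. The ratio of microglia to astrocytes in summed CPM was smallest for the importin alphas, at 1.60, and largest for the central channel, at 3.13. It was 2.32 for the importin betas, 1.74 for the exportins, 2.07 for the Ran cycle and 2.31 for the outer ring. Differences between these ratios were not tested.

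Of the 5 tested importin alphas, 2 were called, both lower in astrocytes. Kpna2 was at 14.2 to 39.2 CPM in microglia (median 32.2) and 7.05 to 14.3 CPM in astrocytes (median 9.86). The lowest microglia and the highest astrocyte library crossed by a small margin, with a log2 fold change of -1.31 (SE 0.24, adjusted p 0.000268 by edgeR). Kpna3 was at 75.8 to 117 CPM in microglia (median 88.2) and 36.7 to 67.2 CPM in astrocytes (median 44.6). Here the cell types did not overlap, with a log2 fold change of -0.65 (SE 0.16, adjusted p 0.00270 by edgeR), and in the WT libraries alone the value was -0.41 (adjusted p 0.211).

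Kpna4 (-0.16, 95% interval -0.48 to 0.16), Kpna1 (-0.19, -0.58 to 0.21) and Kpna6 (-0.49, -1.02 to 0.03) were not called. With library totals alone Kpna1 (-0.47, edgeR adjusted p 0.0369) and Kpna6 (-0.73, 0.0324) were called. Kpna6 was also called without WT replicate 2 (-0.69, 0.0454), without KO replicate 1 (-0.86, 0.0178) and with the animal as a block (-0.54, 0.0412), and Kpna4 without KO replicate 3 (-0.51, 0.0313). In the KO libraries alone the log2 fold changes of Kpna4 and Kpna1 were above 0, at 0.20 and 0.04.

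Of the 12 importin betas, 9 were called, all lower in astrocytes. Kpnb1 was at 271 to 427 CPM in microglia (median 334) and 74.7 to 127 CPM in astrocytes (median 120.0). Every microglia library was more than 2-fold above every astrocyte library, with a log2 fold change of -1.36 (SE 0.15, adjusted p 1.54e-06 by edgeR). Ipo5, a receptor known for importing ribosomal proteins and histones, was at 130.3 to 202 CPM in microglia (median 152) and 42.4 to 70.0 CPM in astrocytes (median 58.1), and Tnpo2 at 60.5 to 78.0 CPM in microglia (median 62.7) and 13.9 to 33.5 CPM in astrocytes (median 21.4), both without overlap. Their log2 fold changes were -1.24 and -1.23 (edgeR adjusted p 4.71e-06 and 8.17e-06). Ipo11, Ipo8 and Ranbp6 were not called, at -0.22, -0.12 and 0.06. Of the 8 exportins, 6 were lower and 1 higher. Cse1l was at 41.5 to 82.0 CPM in microglia (median 63.0) and 19.0 to 30.6 CPM in astrocytes (median 25.0), without overlap, with a log2 fold change of -1.05 (SE 0.18, adjusted p 0.000145 by edgeR). Xpo7 was not called, at 0.03 (95% interval -0.39 to 0.45).

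Ranbp17, a relative of the exportin Xpo7, ran the other way. It was at 1.06, 0.269 and 1.06 CPM in the microglia libraries of WT and 0, 0 and 0.826 CPM in those of KO mice. In astrocytes it was at 13.0, 20.8 and 13.2 CPM for WT and 14.2, 4.75 and 10.5 CPM for KO. Every astrocyte library was above every microglia library, most of which held few counts or none. The log2 fold change was 4.87 (95% interval 3.36 to 6.37, adjusted p 2.52e-05 by edgeR). All 5 Ran cycle genes were lower in astrocytes. Rcc1, the nucleotide exchange factor that loads Ran with GTP on chromatin, was at 12.8 to 19.2 CPM in microglia (median 17.6) and 2.699 to 4.53 CPM in astrocytes (median 3.48), with a log2 fold change of -1.98 (SE 0.28, adjusted p 1.79e-05 by edgeR). Ran was at 142 to 222 CPM in microglia (median 176) and 82.5 to 130.1 CPM in astrocytes (median 91.4), with a log2 fold change of -0.58 (SE 0.18, adjusted p 0.0106 by edgeR). Of the 2 genes with Ran-binding names that are no transport receptors, Ranbp10 was lower (-1.30) and Ranbp9 was not called (-0.24).

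Of the 20 nucleoporins, 16 were called and all of these were lower in astrocytes. Nup210 was at 19.8 to 65.4 CPM in microglia (median 30.9) and 0.651 to 4.89 CPM in astrocytes (median 3.81). No library overlapped, and the log2 fold change of -3.12 (SE 0.35, adjusted p 1.96e-06 by edgeR) was the largest fall of the 52 genes. Nup62, the phenylalanine-glycine nucleoporin of the central channel, was at 35.4 to 54.5 CPM in microglia (median 50.6) and 6.05 to 15.7 CPM in astrocytes (median 10.8). It too did not overlap, with a log2 fold change of -1.87 (SE 0.25, adjusted p 1.11e-05 by edgeR). In the annotation 3.40% of its exon bases are shared with Il4i1. Nup107, of the outer ring, was at 13.8 to 27.3 CPM in microglia (median 22.4) and 0.465 to 11.3 CPM in astrocytes (median 6.65), with a log2 fold change of -1.48 (SE 0.45, adjusted p 0.00937 by edgeR). Its lowest value was in astrocytes KO replicate 2, and in the KO libraries alone the adjusted p was 0.0812. Nup43, of the outer ring, had few counts, at 1.13 to 9.24 CPM in microglia (median 3.83) and 0 to 3.24 CPM in astrocytes (median 0.775), and overlapped. Its log2 fold change of -1.98 (SE 0.78, adjusted p 0.0373 by edgeR) lost the threshold without WT replicate 2 (adjusted p 0.155), without WT replicate 3 (0.0861), without KO replicate 1 (0.0671), with the animal as a block (0.0902), and in the WT (0.295) or KO (0.0790) libraries alone. Nup153, of the basket on the nuclear side, was at 137 to 203 CPM in microglia (median 149) and 27.8 to 81.3 CPM in astrocytes (median 60.1), with a log2 fold change of -1.22 (SE 0.22, adjusted p 0.000255 by edgeR). Nup35, Nup37, Nup50 and Nup93 were not called. Nup35, of the inner ring, had a log2 fold change of 0.63 (95% interval -0.09 to 1.35) over both genotypes. It was 1.17 in the WT libraries alone (adjusted p 0.0495 by edgeR) and 0.03 in the KO libraries alone (adjusted p 0.971), and the difference between these was not called (-1.05, SE 0.68, adjusted p 0.890).

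Beyond the 53 genes, 24 other pore and transport genes from a written list, among them membrane and accessory nucleoporins, mRNA export factors and SUMO enzymes of the pore, were read from the same fits. In the comparisons of genotypes edgeR called 0 of 21 in microglia and 0 of 22 in astrocytes. DESeq2 and voom also called 0 of them. By edgeR at an unadjusted p under 0.05 there were 0 in microglia, against 7.42% of all genes, and 2 in astrocytes, against 2.37%. These were Sec13, an outer ring protein that also serves the coat of secretory vesicles, at 11.9, 9.35 and 17.1 CPM in WT and 19.4, 18.5 and 32.3 CPM in KO astrocytes (log2 fold change 0.99, SE 0.34, adjusted p 0.999 by edgeR), and Ndc1. Ndc1, a membrane nucleoporin, was at 9.64, 8.05 and 13.9 CPM in WT and 12.2, 28.4 and 19.5 CPM in KO, with overlap (log2 fold change 1.12, SE 0.42). Nxt2, a cofactor of mRNA export, had log2 fold changes of 0.50 in microglia and 0.59 in astrocytes, and Snupn, the import adaptor of splicing particles, of 0.66 and -0.33. The edgeR adjusted p of these 4 genes ran from 0.732 to 0.999.

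Between the cell types edgeR called 13 of 23 of these genes, where it called 64.6% of the 17294 genes tested. Lower in astrocytes were 10, against 28.2% of all genes, and higher were 3, against 36.4%. Senp2, a SUMO protease bound to the basket, was at 137, 159 and 143 CPM in WT microglia and 43.8, 37.2 and 49.3 CPM in WT astrocytes, with a log2 fold change of -1.52 (SE 0.14, adjusted p 1.97e-07 by edgeR). Of the 3 with the largest differences, Ranbp3l, a relative of Ranbp3, was at 0 to 2.34 CPM in microglia and 17.3 to 23.8 CPM in astrocytes, with a log2 fold change of 4.91 (SE 0.66, adjusted p 1.12e-05 by edgeR). Nup210l, a relative of Nup210, was at 0.964 to 4.22 CPM in microglia and was above 0 in 1 astrocyte library only, and in the WT libraries alone it was not called (adjusted p 0.107). Nup62cl, which resembles the end of Nup62, had 0 counts in all microglia libraries and 0.0931 to 4.47 CPM in astrocytes, which is at least 8.60-fold higher on average than the highest floor of 3 counts per microglia library. The gene under the older symbol Nupl1, the central channel partner of Nup62, was at 63.6 to 103 CPM in microglia and 20.1 to 33.6 CPM in astrocytes, with a log2 fold change of -1.36 (SE 0.15, adjusted p 1.36e-06 by edgeR). Nupl2 was at 12.6 to 22.8 and 3.98 to 21.7 CPM, and was not called (-0.29). Both were named after their values were seen.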

How the data were processed

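RNA of 12 libraries was read from full-length cDNA without molecular identifiers. The deposited values are the authors' estimated counts per gene symbol, not normalized. Per the submitters' processing notes the tools were STAR 2.7.10b, RSEM 1.3.3 and limma with the build GRCm39, with no role given; no source used here names the annotation. From 3.44% to 5.27% of the values per library were not whole (tolerance 0.001), and all were rounded before testing.

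Libraries were grouped by their labels. KO and WT were compared within each cell type with edgeR 4.0.16 (R 4.3.3; quasi-likelihood test, TMM scaling, filterByExpr with a minimum count of 10, Benjamini-Hochberg adjustment over all genes tested, threshold 0.05). A fit of all 12 libraries gave the difference of the genotype effects and, averaged over genotypes, astrocytes against microglia. CPM is the rounded count per 1000000 counts of its library. The standard error was taken from the F statistic and intervals are at 95%. Exon lengths and overlaps came from GENCODE M21 on GRCm38, another build than the authors', so they were used by symbol only. Alternatives used DESeq2 1.42.0, limma 3.58.1 (voom), other scalings and filters, libraries left out and replicate blocks. The tests were also run on simulated counts, with the same dispersion for every gene and with independent libraries. That setting is simpler than these data, and its outcome is not used here.

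Each animal gave 1 library of each cell type, by the shared number in the labels; deviations from the group means of the same animal's libraries correlated at -0.01 to 0.18. Replicate libraries of a group differed beyond counting noise (chi-square per degree of freedom 29.8 to 117), so none was taken as a duplicate. Within a cell type the p-values measure the spread between these 3 animals per genotype. The main fit of 12 libraries treated both libraries of an animal as independent, and the fit with the animal as a block is an alternative. Counts of 0 were limited at 3 counts, for counting error only. The members and gene lists were chosen with earlier results of these data known. The genes named by rule were the 6 importin alphas, every called gene of a comparison of genotypes, the 5 with the smallest unadjusted p in each such comparison and in the difference of effects, and up to 6 called rises and 6 called falls between the cell types. Of the other pore and transport genes, the 3 with the smallest p in each comparison of genotypes and the 3 largest called differences between cell types were named. Other genes were added after their values were seen, by role or because their groups did not overlap. The GCATGCG motif was first searched as a longer palindrome that contains it.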

Additional observations from a re-analysis of the deposited data

How the results depend on the processing

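The count of transport and pore genes called between KO and WT was 0 in microglia, in astrocytes and for the difference of effects under each alternative run, the replicate block among them (replicate number within a cell type: 0 and 0; animal in the fit of 12 libraries: 0). Replicate numbers were not used to pair WT with KO in the main fits. In microglia deviations of WT and KO correlated at 0.06 to 0.30 for the same number and -0.22 to 0.13 for different numbers. In astrocytes these were -0.02 to 0.37 and -0.25 to 0.19. Replicate 3 gave the highest value in both cell types. With the number as a block edgeR called 30 of 14191 genes in microglia and 0 of 15755 in astrocytes. Whether the numbers mark a shared batch was not tested. Between cell types 39 to 45 of 52 were called under other tests, scalings and filters, 39 to 42 with an animal left out, 40 with the animal as a replicate block, and 33 and 31 in WT and KO libraries alone; a 2-fold minimum left 22. Under the block Kpna6 gained and Nup43 lost its call, and no other of the 52 changed. The median of the 52 was -1.09 with library totals, and -1.09 to -0.86 with an animal left out. Intervals inside -1 to 1 in astrocytes numbered 22 to 34 with 1 library left out, when fewer samples enter. With 1 library left out, genes without overlap numbered 7 to 17 in microglia, against 19.7% to 27.1% of all genes. In astrocytes they numbered 3 to 9, against 15.3% to 21.5%. With TMM-scaled CPM there were 5 in astrocytes, against 8.63% of all genes.

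Single importin alphas near 0 changed sign, and the cause was not tested. In microglia Kpna6 was -0.018 at a minimum count of 50, -0.081 in a fit of all 12 libraries and -0.17 to 0.31 with 1 library left out, and Kpna1 -0.30 to 0.029. In astrocytes Kpna3 was -0.35 to 0.076 and Kpna6 -0.38 to 0.29 with 1 library left out. The difference of effects for Kpna6 was -0.016 with DESeq2 and with RLE factors, -0.13 with library totals, -0.10 without a filter, -0.032 with voom, -0.10 without the 8 abundant RNAs, -0.094 with the animal block and -0.46 to 0.20 with an animal left out. For Kpna2 it was -0.044 with library totals and -0.14 to 0.29 with an animal left out. In KO libraries alone, astrocytes over microglia was 0.038 for Kpna1 and 0.20 for Kpna4. With 3 libraries per group, differences within the intervals given were not excluded.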
